A study of Homo sapiens with 32 samples.

Results

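The genes described here are EP300 and CREBBP, which encode the acetyltransferases p300 and CBP, together with KAT2A, KAT2B, KAT5, KAT6A, KAT6B, KAT7, KAT8 and HAT1, which encode other lysine acetyltransferases. They were chosen by symbol, and all 10 were found among the 18980 coding genes of the RNA-seq files. The cells were RH4, an established human line of alveolar rhabdomyosarcoma, a tumour of skeletal muscle lineage driven by a PAX3-FOXO1 fusion protein. Each of 4 compounds (A485, dCBP, IHK-44, JQAD) was given at 2 doses (100 nM, 1 uM) and 2 times (2 h, 6 h), in 16 libraries. Controls were DMSO (vehicle) and NT, an abbreviation left unexplained in the labels, with 1 library each per time. The series' text calls the compounds inhibitors or degraders of CBP and p300. A485 is known as an inhibitor of the catalytic domain of both proteins, and JQAD and dCBP are names known for degraders, the first directed at p300 and the second at both. IHK-44 is a code name, and nothing is said of its structure. Another 11 ChIP-seq samples and 1 ChRO-seq sample (nascent RNA) were not analysed here.

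Lysine acetyltransferases transfer an acetyl group from acetyl-CoA to lysines of histones and other proteins. CBP and p300 are close relatives that act at enhancers, among them those that keep the muscle lineage factors active in this tumour. KAT2A and KAT2B (GCN5 and PCAF) work in the SAGA and ATAC complexes, KAT5 (TIP60) in NuA4, KAT6A, KAT6B and KAT7 (MOZ, MORF and HBO1) with BRPF or JADE scaffolds, KAT8 (MOF) in MSL and NSL, and HAT1 on newly made histones. The rule for these genes asks whether the RNA of the targets changed under the compounds and whether that of other acetyltransferases did. The files measure RNA. A degrader acts on the protein, which was not measured, so its loss cannot be read here.

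The 4 promoters below belong to the genes on which the results turn, the target pair and the KAT2A and KAT2B pair. Each is the 250 bases before the RefSeq transcription start (assembly GRCh38.p14), 5′ to 3′ on the strand of the gene, in lower case with each CG dinucleotide in capitals.
EP300: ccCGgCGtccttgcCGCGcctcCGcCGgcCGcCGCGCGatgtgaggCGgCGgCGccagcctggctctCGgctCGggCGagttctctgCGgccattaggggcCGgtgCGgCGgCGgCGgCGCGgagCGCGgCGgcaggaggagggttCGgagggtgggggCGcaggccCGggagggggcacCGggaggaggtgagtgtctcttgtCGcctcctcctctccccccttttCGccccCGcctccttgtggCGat
CREBBP: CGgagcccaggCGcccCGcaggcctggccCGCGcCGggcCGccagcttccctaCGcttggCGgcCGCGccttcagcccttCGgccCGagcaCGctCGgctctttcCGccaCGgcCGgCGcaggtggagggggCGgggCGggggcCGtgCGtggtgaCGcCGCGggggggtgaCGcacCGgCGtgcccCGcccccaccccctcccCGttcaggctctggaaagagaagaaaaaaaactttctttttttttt
KAT2A: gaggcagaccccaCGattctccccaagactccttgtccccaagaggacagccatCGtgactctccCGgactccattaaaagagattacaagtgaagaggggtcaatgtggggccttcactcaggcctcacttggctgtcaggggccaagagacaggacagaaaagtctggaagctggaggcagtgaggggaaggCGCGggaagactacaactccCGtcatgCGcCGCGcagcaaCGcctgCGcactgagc
KAT2B: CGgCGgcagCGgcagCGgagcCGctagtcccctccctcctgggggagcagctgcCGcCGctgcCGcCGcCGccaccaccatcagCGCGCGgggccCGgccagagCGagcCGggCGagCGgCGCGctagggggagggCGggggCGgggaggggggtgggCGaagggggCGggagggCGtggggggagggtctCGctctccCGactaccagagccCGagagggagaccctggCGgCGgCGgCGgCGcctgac
The stretches lie at chr22:41092342-41092591 on the plus strand (EP300), chr16:3880714-3880963 on the minus strand (CREBBP), chr17:42121368-42121617 on the minus strand (KAT2A) and chr3:20040196-20040445 on the plus strand (KAT2B). EP300 held 35 CG dinucleotides, KAT2B 33 and CREBBP 31, against a median of 18 over the 15027 coding genes with a promoter in the table, while KAT2A held 11. The 2 members of each pair are thus alike in the first pair and unlike in the second. Of the other members, HAT1 held 27, KAT6B 24 (at the first of its 3 listed starts), KAT5 19 and KAT7 14. KAT6A and KAT8 had no entry. The motifs searched, on both strands, were TGACGTCA, the full site of cAMP-responsive factors, TGACG, which also lies within it, and CCGGAAGT, a site of ETS factors. TGACG was found in CREBBP, KAT2A, KAT5, KAT7 and HAT1 (in 25.8% of all promoters), CCGGAAGT in KAT5, KAT7 and HAT1 (5.20% of all), and TGACGTCA in none of the 8 (2.37% of all). A match is a match of letters only.

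Library totals over coding genes ran from 13466631 to 16799327 expected counts, so a gene at 10 CPM (counts scaled to a fixed library total) rested on more than 100 reads. RH4 markers were present in every library, with a summed level of 1171 to 3260 CPM, and MYF5 and MYF6 were at or near 0. Of the 13 markers of blood, endothelial, epithelial, liver and glial cells, the sum was 1.26 to 4.46 CPM, and EPCAM was at 0 in all libraries. In the dCBP and IHK-44 libraries of 6 h, the median gene's log2(CPM + 1) stood 0.16 to 0.22 above DMSO of the same time, so that ratios of single libraries are also given after taking off the median gene (centred). Long transcripts shifted as a class, by an amount that differed between libraries. Relative to the median gene, genes with transcripts of 8000 bases or more had a median of -0.31 in dCBP 100 nM at 6 h and of 0.17 in A485 100 nM at 6 h. A shift of this kind also lay between 2 controls, with a median of 0.16 in NT at 2 h against DMSO at 2 h. The weighted transcript length was 8771 bases for EP300 and 10225 for CREBBP, so this shift stands beside their values below, and its part in them was not tested except by a refit with a length offset.

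In the 4 control libraries, levels per transcript length (FPKM, fragments scaled by transcript length and library size, as deposited by the authors) were highest for CREBBP, at 48.1 ± 5.07 (SD, n = 4, 2 DMSO and 2 NT), and HAT1, at 44.9 ± 0.57, whose ranges overlapped. EP300 followed at 29.6 ± 3.56 and KAT6A at 28.4 ± 0.83, again with overlapping ranges. KAT7 stood at 22.9 ± 1.67, KAT8 at 15.4 ± 1.5 and KAT2A at 12.3 ± 1.27, and the ranges of the last 2 overlapped. KAT5 was at 8.26 ± 0.72, KAT6B at 5.36 ± 0.65 and KAT2B, the lowest, at 4.02 ± 0.68. Every member was thus expressed, and all 10 passed the filter on low counts in each fit.

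**Figure D1:**
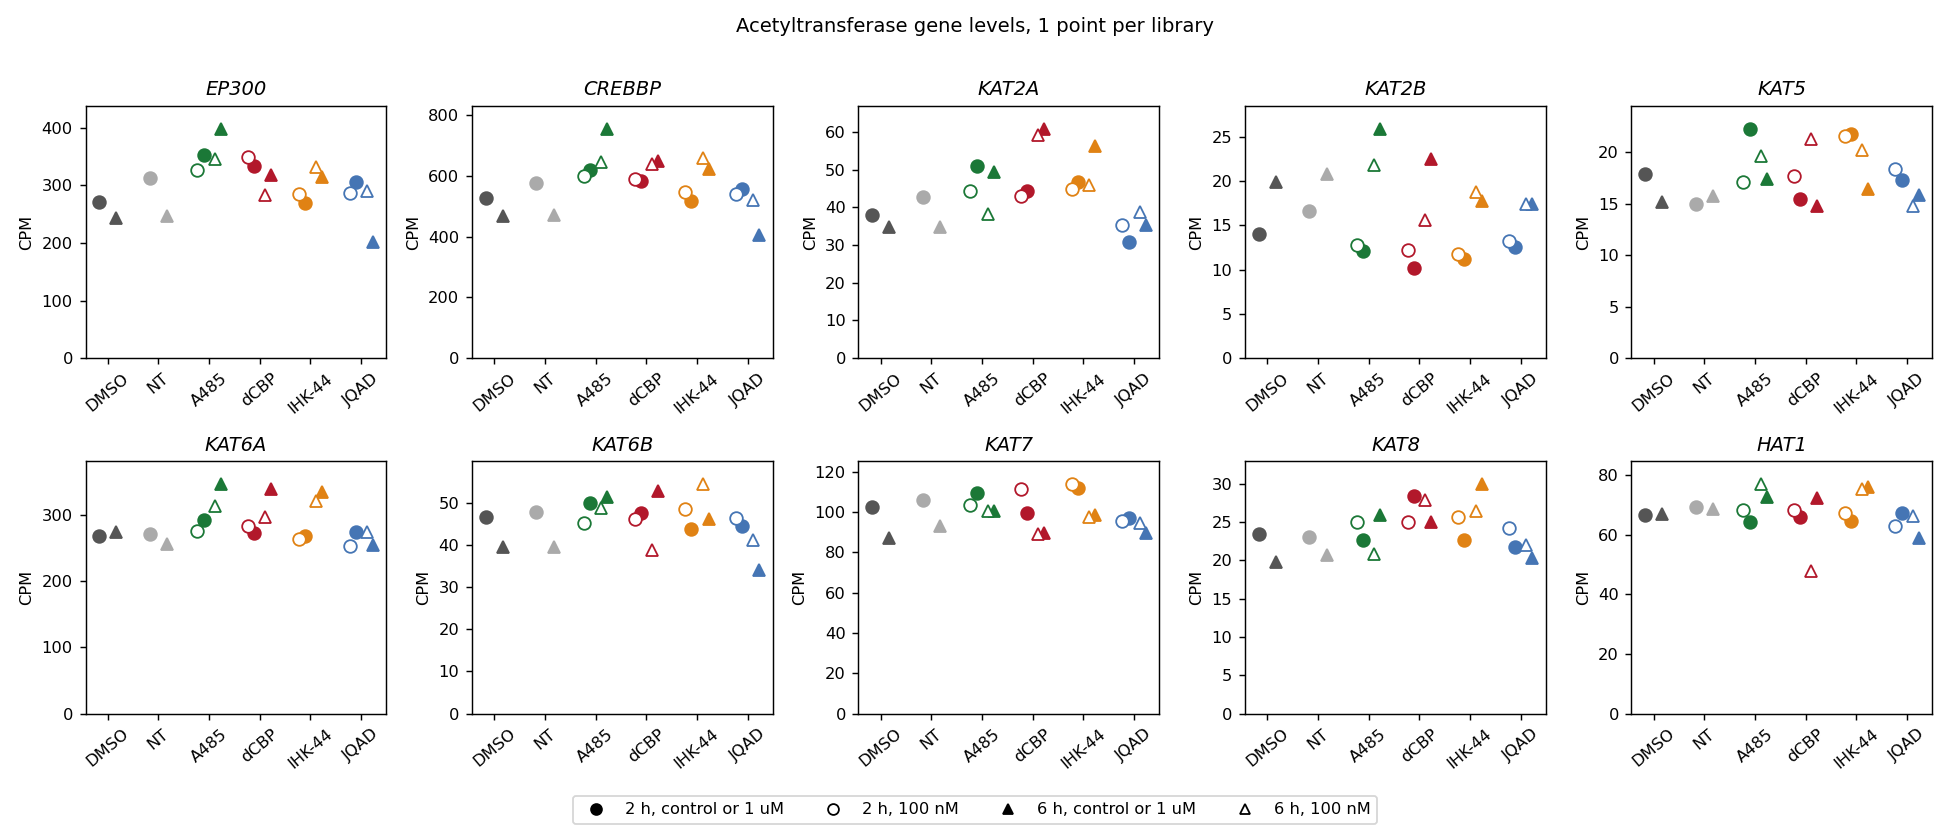
CPM (vertical axis, from 0) of the 10 acetyltransferase genes in the 20 libraries, 1 point per library, grouped by compound, with circles for 2 h, triangles for 6 h and open symbols for 100 nM. EP300 and CREBBP reach their highest points with A485 at 1 uM and 6 h (398 and 756 CPM), and KAT2A with dCBP at 6 h (60.8 and 59.3 CPM).

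Among the targets, EP300 and CREBBP rose with A485 at 6 h, and CREBBP also rose with dCBP and with IHK-44 at that time, while neither passed the test with JQAD or at 2 h with any compound. EP300 stood at 244 CPM in DMSO and 247 in NT at 6 h. With A485 at 6 h it stood at 398 CPM at 1 uM and 346 at 100 nM, with dCBP at 318 and 283, with IHK-44 at 315 and 331, and with JQAD at 202 and 290. All 6 libraries of the first 3 compounds thus lay above both controls, and those of JQAD lay on either side. In TMM-scaled CPM, both libraries of a compound lay above both controls for 33.5% of 12174 genes with A485. The share was 37.2% with dCBP and 44.7% with IHK-44. CREBBP stood at 469 CPM in DMSO and 470 in NT at 6 h. It stood at 756 and 646 CPM with A485 at 6 h (1 uM first, then 100 nM, as in all pairs of values below), at 650 and 639 with dCBP, at 622 and 659 with IHK-44, and at 404 and 522 with JQAD. The pattern over compounds was alike for both genes.

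At 2 h the controls themselves differed more. EP300 was at 271 CPM in DMSO and 313 in NT, and treated libraries ran from 270 with IHK-44 at 1 uM to 352 with A485 at 1 uM. CREBBP was at 528 in DMSO and 578 in NT, and treated libraries ran from 518 with IHK-44 at 1 uM to 619 with A485 at 1 uM. For both genes the treated range took in both controls. In NT at 2 h the long genes stood 0.16 above the median gene, and the centred ratios to DMSO were 0.20 for EP300 and 0.13 for CREBBP.

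The test across all genes was edgeR's quasi-likelihood test on rounded expected counts with Benjamini-Hochberg adjustment, in which the 2 doses of a compound at 1 time stood in for replicates and DMSO and NT of that time were pooled. Its p-values measure the spread between single libraries, since nothing in the labels says that any 2 were repeats of a condition. With A485 at 6 h, EP300 was higher by 0.51 on the log2 scale (SE 0.12, 1.42-fold, adjusted p = 0.0124) and CREBBP by 0.49 (SE 0.10, 1.40-fold, adjusted p = 0.00577). These were 2 of the 10 members, against 16.6% of the 13260 genes tested in that comparison (2197 genes). With dCBP 3 of 10 passed, against 45.5% of all genes, and with IHK-44 2 of 10, against 42.1%. With dCBP at 6 h, CREBBP was higher by 0.30 (SE 0.10, adjusted p = 0.0197), whereas EP300 was at 0.13 (95% interval -0.12 to 0.39). With IHK-44 at 6 h, CREBBP was higher by 0.28 (SE 0.10, adjusted p = 0.0298) and EP300 was at 0.23 (95% interval -0.03 to 0.49). With JQAD at 6 h, EP300 was at -0.00 (95% interval -0.26 to 0.26) and CREBBP at -0.03 (95% interval -0.23 to 0.18), so changes beyond about those bounds were not seen. The A485 calls rested on few libraries, for all genes as for the members: 472 genes passed without DMSO at 6 h, 173 without NT at 6 h, 179 without A485 1 uM at 6 h, 3499 without A485 100 nM at 6 h and 49 with DMSO alone. Without A485 1 uM at 6 h, EP300 was at 0.46 (adjusted p = 0.142) and CREBBP at 0.42 (adjusted p = 0.0870), and without NT at 6 h they were at 0.53 (adjusted p = 0.0894) and 0.50 (adjusted p = 0.0601). Without DMSO at 6 h, EP300 was at 0.51 (adjusted p = 0.0825), and with DMSO alone as control it was at 0.53 (adjusted p = 0.108) and CREBBP at 0.50 (adjusted p = 0.0798). The CREBBP calls with dCBP and IHK-44 were likewise lost without either control of 6 h or without the 100 nM library of 6 h (adjusted p = 0.0598 to 0.185), and with DMSO alone (adjusted p = 0.0922 and 0.121).

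**Figure D2:**
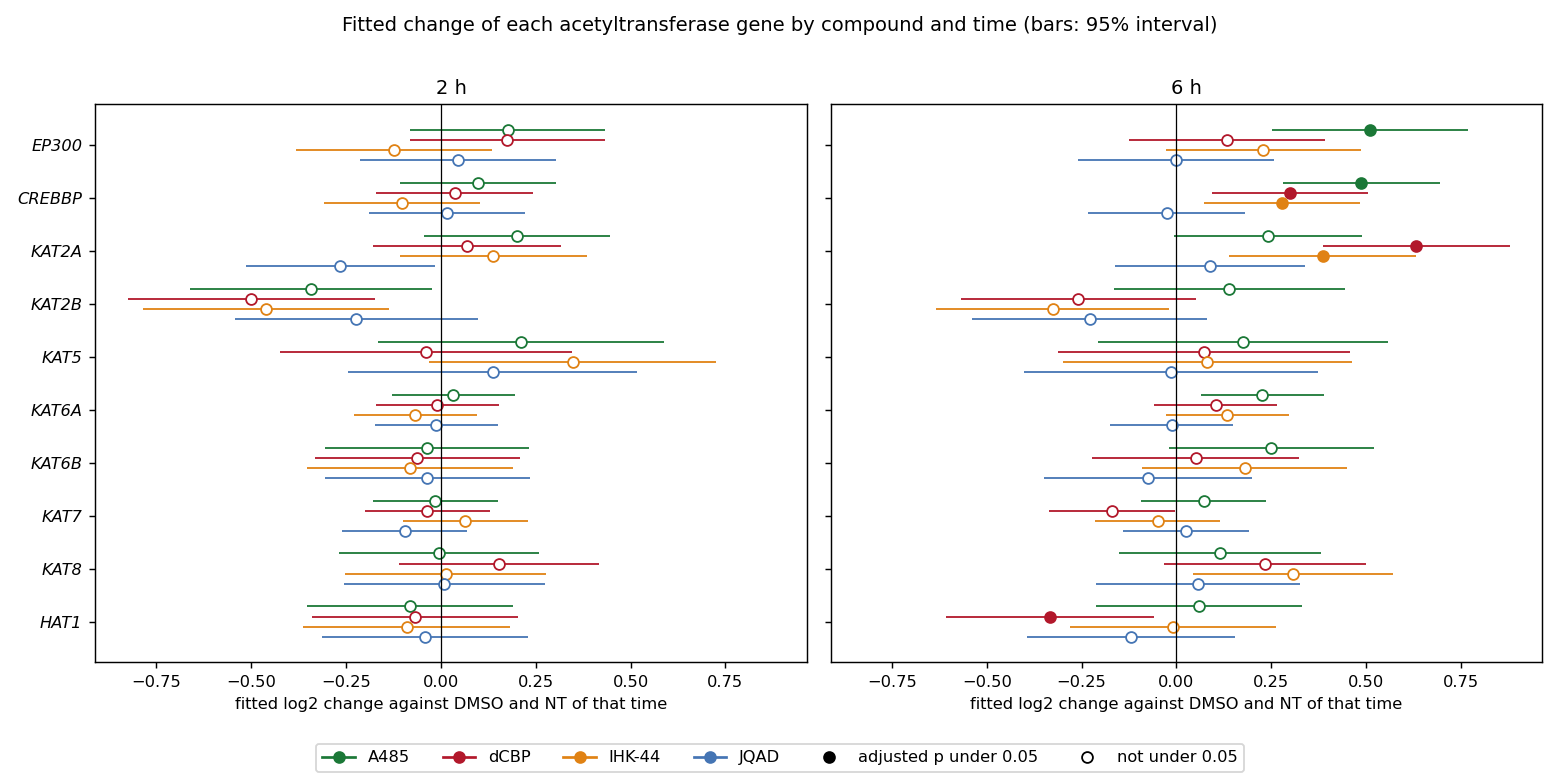
Fitted log2 change (horizontal axis) of each acetyltransferase gene against the pooled DMSO and NT libraries of the same time, at 2 h and 6 h, with bars for 95% intervals and filled points where the adjusted p is under 0.05. All 7 filled points are at 6 h, and 6 of them, EP300, CREBBP and KAT2A, lie above 0.

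At 6 h the long genes stood above the median gene in both A485 libraries and in JQAD 100 nM, and below it in both libraries of dCBP and of IHK-44 and in JQAD 1 uM. In the A485 libraries of 6 h, genes with long transcripts had a median 0.07 and 0.17 above the median gene (1 uM, then 100 nM), and EP300 had centred ratios of 0.56 and 0.47. In the dCBP libraries of 6 h, the long genes stood at -0.08 and -0.31, while CREBBP had centred ratios of 0.26 and 0.28 and EP300 of 0.18 and 0.05. In JQAD 1 uM at 6 h, long genes stood at -0.09, with EP300 at -0.26 and CREBBP at -0.20. In JQAD 100 nM at 6 h, long genes stood at 0.14, with EP300 at 0.26 and CREBBP at 0.16. The 2 JQAD libraries of 6 h thus lay on opposite sides of DMSO for both targets and for the long genes. In the IHK-44 libraries of 6 h, long genes stood at -0.15 and -0.12, with EP300 at 0.15 and 0.26 and CREBBP at 0.19 and 0.31. When the trend with length was removed as an offset, an alternative chosen after seeing the data, EP300 and CREBBP with A485 at 6 h were higher by 0.41 (adjusted p = 0.00826) and 0.37 (adjusted p = 0.0128). The same fit gave 0.28 for EP300 (adjusted p = 0.0192) and 0.48 for CREBBP (adjusted p = 0.000518) with dCBP at 6 h, and 0.31 (adjusted p = 0.0135) and 0.37 (adjusted p = 0.00370) with IHK-44. So with the offset both targets rose with all 3 compounds at 6 h. In that fit 17.8% of all genes passed in either direction with A485, 47.1% with dCBP and 44% with IHK-44. With JQAD the targets stood at -0.03 and -0.06.

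**Figure D3:**
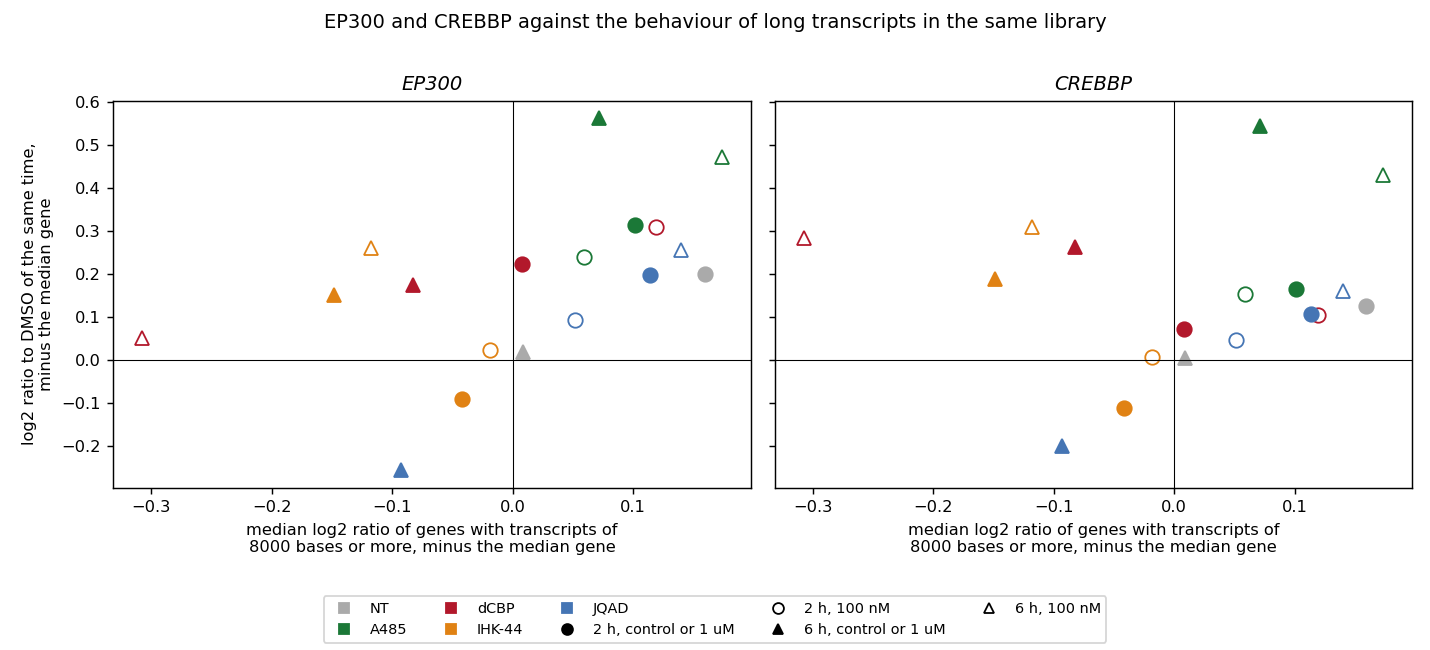
Centred log2 ratio of EP300 and CREBBP (vertical axis) against the median ratio of genes with transcripts of 8000 bases or more (horizontal axis) in the 18 libraries other than DMSO, each ratio taken to time-matched DMSO, with triangles for 6 h and open symbols for 100 nM. The triangles of A485, dCBP and IHK-44 lie above 0 for both genes, also where long genes lie below 0, as does that of JQAD 100 nM (EP300 0.26, CREBBP 0.16), while that of JQAD 1 uM lies below 0.

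The balance of the 2 target transcripts changed little. The FPKM ratio of CREBBP to EP300 was 1.58 and 1.67 in the controls at 2 h and 1.63 and 1.65 at 6 h. With dCBP it was 1.44 to 1.5 at 2 h, below both controls, and 1.75 to 1.93 at 6 h, above both. With IHK-44 it was 1.64 at 2 h in both libraries and 1.70 at 6 h in both, at 6 h also above both controls. A485 gave 1.49 to 1.57 at 2 h and 1.59 to 1.62 at 6 h, below both controls each time. With JQAD it was 1.56 to 1.62 and 1.54 to 1.71. These ratios have 1 library per condition and no test.

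Across the 20 libraries, the genes whose log2(CPM + 1) was most like that of EP300 were CDK12, which encodes a kinase of RNA polymerase II (Pearson r = 0.924), CREBBP (0.912), MKI67 (0.893), SCAF4 (0.889) and SRRM2 (0.886). For CREBBP they were WDR33 (0.918), RBM33 (0.918), EP300 (0.912), MKI67 (0.910) and ATXN7, a SAGA subunit (0.902). They were found among 9575 genes with a mean of at least 10 CPM. The libraries share compounds and the length shift, and most of these genes have long transcripts, from 4583 bases (SCAF4) to 11856 (MKI67), so the likeness is a description only.

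Of the acetyltransferases that the compounds do not target, KAT2A rose with dCBP and with IHK-44 at 6 h. It stood at 34.7 CPM in DMSO and 34.8 in NT at 6 h, and at 60.8 CPM with dCBP at 1 uM and 59.3 at 100 nM. IHK-44 libraries of 6 h had 56.4 and 45.9 CPM, with A485 at 49.4 and 38.1, and with JQAD at 35.3 and 38.8. Both dCBP libraries were thus above every other library of the series, and all 8 treated libraries of 6 h lay above both controls. In TMM-scaled CPM, both libraries of a compound lay above both controls for 33.5% of 12174 genes with A485. The share was 37.2% with dCBP, 44.7% with IHK-44 and 12.1% with JQAD. KAT2A with JQAD 1 uM lay close to the controls, at 35.3 CPM against 34.7 and 34.8. The fitted log2 change with dCBP at 6 h was 0.63 (SE 0.12, 1.55-fold, adjusted p = 0.000423), and with IHK-44 0.39 (SE 0.12, 1.31-fold, adjusted p = 0.0139). The dCBP value stayed at 0.63 to 0.64 whichever 1 of the 4 libraries in that contrast was left out, at 0.58 with the length offset (adjusted p = 0.000537) and at 0.64 against DMSO alone, and passed the test each time. The IHK-44 call was lost without the 1 uM library of 6 h (0.25, adjusted p = 0.191), without either control of 6 h (adjusted p = 0.0660 and 0.0679) and with DMSO alone (adjusted p = 0.0783). With A485 at 6 h KAT2A was at 0.24 (adjusted p = 0.161), and without A485 100 nM it was at 0.38 (adjusted p = 0.0406).

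At 2 h KAT2A was at 37.9 CPM in DMSO and 42.7 in NT, at 44.4 and 43.0 with dCBP, at 46.8 and 44.9 with IHK-44, at 51.0 and 44.4 with A485 and at 30.8 and 35.2 with JQAD. The fitted change with dCBP at 2 h was 0.07 (95% interval -0.18 to 0.32). Its change at 6 h exceeded that at 2 h by 0.56 (SE 0.17, adjusted p = 0.0427), 1 of 10 members against 9.06% of all genes. This call was lost with DMSO alone as control (0.50, adjusted p = 0.280), and without any 1 of the 4 controls or 3 of the 4 dCBP libraries, all but 1 uM at 6 h (0.50 to 0.66, adjusted p = 0.0626 to 0.142). For the other compounds no member passed that test: 0.00754% of all genes did with A485, 9.89% with IHK-44 and 0.0% with JQAD, and at an unadjusted p under 0.05 the members were 2, 1 and 1. DESeq2 also called none, and limma called CREBBP with IHK-44.

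KAT2B, the close relative of KAT2A, did not rise with it. It stood at 13.98 CPM in DMSO and 16.7 in NT at 2 h, and at 12.1 and 12.8 with A485, 10.2 and 12.2 with dCBP, 11.2 and 11.8 with IHK-44 and 12.6 and 13.3 with JQAD. All 8 treated libraries of 2 h lay below both controls, the closest at 13.3 CPM (JQAD 100 nM) against 13.98 in DMSO. The share of all genes placed in this way was not counted, so this is a description only. The fitted changes at 2 h were -0.34 with A485 (adjusted p = 0.391), -0.50 with dCBP (adjusted p = 0.0674), -0.46 with IHK-44 (adjusted p = 0.105) and -0.22 with JQAD, none past the threshold. With the length offset, the value with dCBP passed (-0.51, adjusted p = 0.0461). At 6 h KAT2B was at 19.9 and 20.9 CPM in the controls, at 25.9 and 21.8 with A485, 22.5 and 15.6 with dCBP, 17.7 and 18.8 with IHK-44 and 17.4 and 17.5 with JQAD. Only the dCBP pair lay on both sides of the controls on this scale. In TMM-scaled CPM both libraries lay below both controls with dCBP, IHK-44 and JQAD (32.6%, 37.5% and 18.6% of 12174 genes). They lay above both with A485 (33.5%). The FPKM ratio of KAT2A to KAT2B was 3.71 and 3.96 in the controls at 2 h and 2.44 and 2.57 at 6 h. It was 5.13 to 6.37 with dCBP at 2 h and 3.95 to 5.56 at 6 h, and 5.50 to 6.09 and 3.56 to 4.62 with IHK-44. With A485 it was 5.12 to 6.13 at 2 h but 2.56 to 2.80 at 6 h, and with JQAD 3.57 to 3.87 and 2.96 to 3.24. The 2 relatives thus stood further apart than in the controls with dCBP and IHK-44 at both times, as values of single libraries. They also did so with A485 at 2 h and, by less, with JQAD at 6 h.

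HAT1, which acetylates new histones, fell with dCBP at 6 h by 0.33 (SE 0.13, adjusted p = 0.0452). It was at 66.9 CPM in DMSO and 68.5 in NT at 6 h, at 72.5 with dCBP 1 uM and at 47.9 with dCBP 100 nM. On this scale only 1 of the 2 libraries was thus low. In TMM-scaled CPM both lay below both controls, as they did for 32.6% of 12174 genes. Without the 100 nM library the value was -0.08 (adjusted p = 0.571). Without dCBP 1 uM it was -0.63. The dCBP 100 nM library also had the strongest shift against long transcripts. The HAT1 transcript averaged 1660 bases in controls, and the part of this shift was not tested beyond the offset fit (-0.43, adjusted p = 0.0309). The call was also lost without either control of 6 h (adjusted p = 0.122 and 0.169), with DMSO alone (adjusted p = 0.195) and with limma (-0.20, adjusted p = 0.218). In the other 15 treated libraries HAT1 ran from 58.8 CPM (JQAD 1 uM at 6 h) to 77.0 (A485 100 nM at 6 h).

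The other 5 members, KAT5, KAT6A, KAT6B, KAT7 and KAT8, did not pass the edgeR test in any comparison at its main settings. limma on log2(CPM + 1), which does not rescale libraries beyond their totals, called KAT6A at 6 h with A485, dCBP and IHK-44. At that time it also called KAT8 with dCBP and IHK-44, and KAT6B with IHK-44. It passed 19.9% of all genes with A485 at 6 h, 52% with dCBP and 51.5% with IHK-44. Between compounds it called KAT8 for dCBP against JQAD (42.2% of all genes) and KAT7 for IHK-44 against JQAD (40.9%). KAT5 ran from 14.7 to 22.2 CPM over the 20 libraries, KAT6B from 34.1 to 54.4, KAT7 from 87.3 to 114 and KAT8 from 19.8 to 30.0. KAT6A ran from 253 to 347 CPM. With A485 at 6 h it was at 347 and 315 CPM against 274 in DMSO and 257 in NT, a fitted change of 0.23 (95% interval 0.06 to 0.39, adjusted p = 0.0538). With dCBP and IHK-44 at 6 h it was at 0.10 (adjusted p = 0.284) and 0.13 (adjusted p = 0.169). These passed with the length offset, at 0.26 (adjusted p = 0.0101) and 0.21 (adjusted p = 0.0289), as did 47.1% and 44% of all genes. KAT8 with IHK-44 at 6 h, at 30.0 and 26.5 CPM against 19.8 and 20.7 in the controls, had a fitted change of 0.31 (95% interval 0.04 to 0.57, adjusted p = 0.0567).

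Counted over the members at 6 h, 2 of 10 rose and none fell with A485, 2 rose and 1 fell with dCBP, and 2 rose and none fell with IHK-44. Over all genes, 7.87% rose and 8.70% fell with A485, 23.2% rose and 22.4% fell with dCBP, and 20.7% rose and 21.4% fell with IHK-44, so with dCBP and IHK-44 the share of members that rose or fell was at or below that of all genes. In TMM-scaled CPM at 6 h, both libraries lay above both controls for 7 of 10 members under A485 (33.5% of 12174 genes), 4 under dCBP (37.2%), 6 under IHK-44 (44.7%) and 1 under JQAD (12.1%). They lay below both for 0 (32.9%), 3 (32.6%), 1 (37.5%) and 2 (18.6%). The median fitted change of the 10 was 0.20, 0.09 and 0.16, against 0.02, 0.06 and 0.06 for all genes. No member passed with JQAD at 6 h or 2 h (0.0% of all genes at either time). At an unadjusted p under 0.05 there were 0 members at 6 h and 1 at 2 h, KAT2A, at -0.27, and neither DESeq2 nor limma called any. At 2 h, no member passed with A485 (0.0452% of all genes), dCBP (5.63%) or IHK-44 (4.88%). Only KAT2B was under an unadjusted p of 0.05 with each, and DESeq2 and limma called none.

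**Figure D4:**
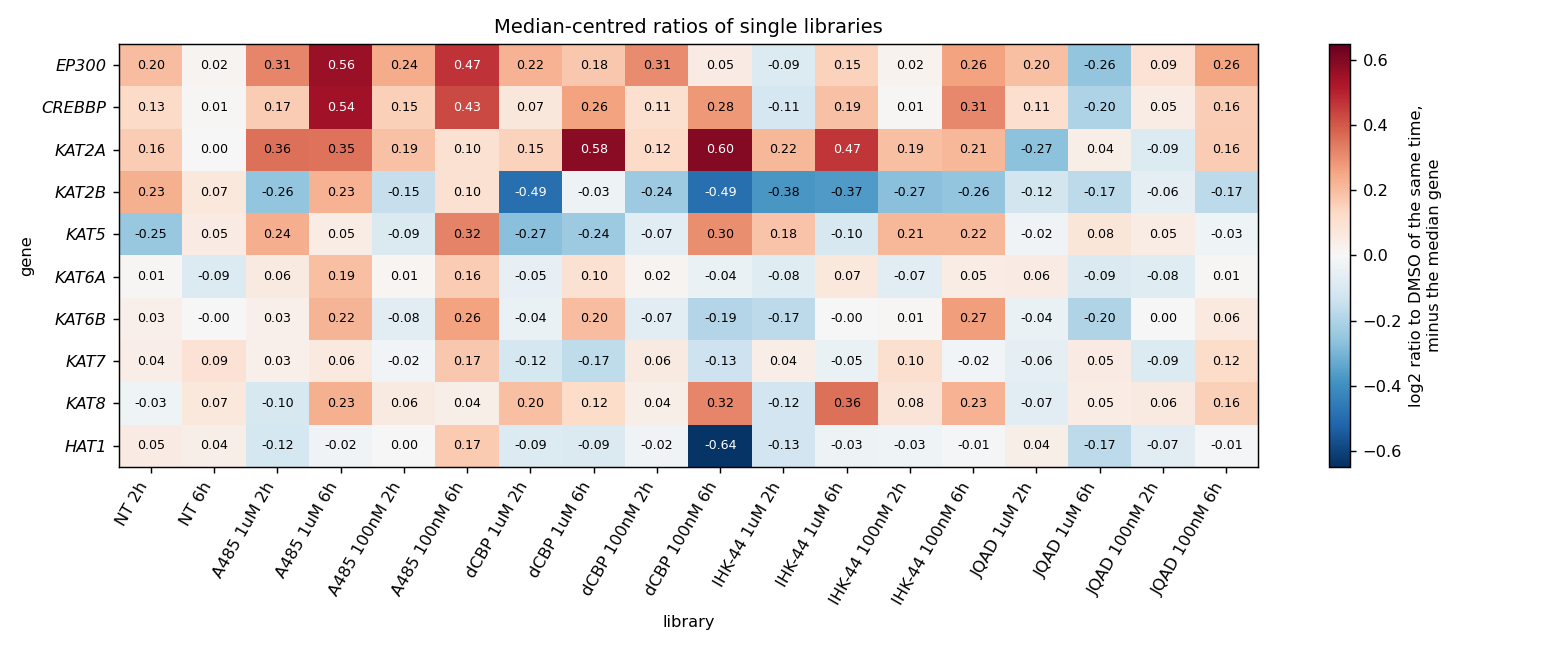
Log2(CPM + 1) ratio to time-matched DMSO, after taking off the median gene, for the 10 acetyltransferase genes (rows) in the 18 libraries other than DMSO (columns). The highest value is KAT2A with dCBP 100 nM at 6 h (0.60) and the lowest is HAT1 in the same library (-0.64).

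In size these changes were small. Of the 160 values of members in treated libraries, 5 were at least 1.5-fold above DMSO of the same time on the log2(CPM + 1) scale and 0 were as far below, against 8.28% and 4.94% of values over the 12174 genes with a mean of at least 1 CPM. After centring, 1 was above and 1 below (5.30% and 6.48% of all), and none reached 2-fold. For scale, MYCN, a driver oncogene of this tumour, was at 73.2 CPM in DMSO and 70.0 in NT at 6 h, at 7.72 and 35.2 with A485, at 3.24 and 2.69 with dCBP, at 1.02 and 3.33 with IHK-44 and at 71.9 and 67.6 with JQAD. MYC was at 67.6 and 73.3 CPM in the controls of 6 h, at 5.54 and 43.7 with A485, at 1.47 and 2.05 with dCBP, at 1.26 and 0.833 with IHK-44 and at 72.7 and 70.4 with JQAD. Both genes were near control level in the JQAD libraries of 6 h. In each library a rise in the share of a transcript and a fall of others cannot be told apart, since all values are relative to the library total.

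When all 4 libraries of a compound were set against DMSO alone, with time as a term, KAT2A rose with dCBP (0.40, SE 0.14, adjusted p = 0.0445), 1 of 10 members against 23.7% of all genes (3137 genes, and 118 without DMSO at 6 h). This call was lost with other size factors (RLE, adjusted p = 0.0571), without the filter on low counts (adjusted p = 0.0609), with NT as control (0.31, adjusted p = 0.0979), on log2(TPM + 1) (0.03, adjusted p = 0.931), and without any 1 of DMSO 2 h, DMSO 6 h, dCBP 1 uM 6 h or dCBP 100 nM 6 h (0.30 to 0.49, adjusted p = 0.0817 to 0.400). No member passed with A485 (0.271% of all genes), IHK-44 (16.9%, or 2247 genes, and 125 without DMSO at 6 h) or JQAD (0.0%). At an unadjusted p under 0.05 they were 2 with A485 (EP300 at 0.40 and CREBBP at 0.32), 2 with IHK-44 (KAT2A at 0.30 and KAT2B at -0.32) and 0 with JQAD, and DESeq2 and limma on log2(CPM + 1) called none. NT against DMSO gave 0 of 10 (0.0% of all genes), with 0 at an unadjusted p under 0.05 and none by DESeq2 or limma. Between 6 h and 2 h of the controls no member passed (0.0754% of all genes). At an unadjusted p under 0.05 there were 3 members, CREBBP (-0.23), KAT2B (0.41) and KAT7, and DESeq2 and limma called none.

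The compounds were compared with each other over matched doses and times, in 6 pairs. KAT2A was higher with dCBP than with JQAD by 0.45 (SE 0.11, adjusted p = 0.00687 over the genes of this pair and 0.0174 over all genes and 6 pairs). This was 1 of 10 members against 35.3% of all genes. In the same libraries, its CPM was higher in dCBP than in JQAD at each of the 4 matched doses and times. The share of all genes ordered in this way was not counted. KAT2A was higher with IHK-44 than with JQAD by 0.35 (SE 0.11, adjusted p = 0.0238, and 0.0504 over all genes and pairs), 1 of 10 against 32.5%. The second call was lost without IHK-44 1 uM 6 h (adjusted p = 0.115), JQAD 1 uM 2 h (adjusted p = 0.0734) or JQAD 1 uM 6 h (adjusted p = 0.0559). Between dCBP and IHK-44, KAT2A differed by 0.10 (95% interval -0.13 to 0.33), and no member passed (0.0% of all genes, 0 members at an unadjusted p under 0.05, none by DESeq2 or limma). EP300 and CREBBP were higher with A485 than with JQAD by 0.32 (95% interval 0.10 to 0.55, adjusted p = 0.0822) and 0.30 (95% interval 0.10 to 0.50, adjusted p = 0.0768), and did not pass in edgeR. In this pair 4.91% of all genes passed, 4 members had an unadjusted p under 0.05, DESeq2 called 0 and limma called both EP300 and CREBBP. EP300 was higher with A485 than with IHK-44 by 0.29 (95% interval 0.07 to 0.51, adjusted p = 0.188), with no member passing (0.882% of all genes, 3 members unadjusted, none by DESeq2 or limma). Against dCBP the A485 difference was 0.19 for EP300 (95% interval -0.03 to 0.41), again with no member passing (0.724% of all genes, 1 member unadjusted, none by DESeq2 or limma).

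The 2 doses of a compound were compared over both times, 1 uM against 100 nM. No member passed with A485 (0.929% of all 13137 genes), dCBP (0.0%), IHK-44 (0.107%) or JQAD (0.0%), none had an unadjusted p under 0.05, and neither DESeq2 nor limma called any. For EP300 the dose difference was 0.08 with A485 (95% interval -0.21 to 0.38), 0.03 with dCBP (-0.27 to 0.33), -0.11 with IHK-44 (-0.40 to 0.19) and -0.20 with JQAD (-0.50 to 0.10). For KAT2A it was 0.22 with A485 (-0.05 to 0.49), 0.02 with dCBP (-0.25 to 0.29), 0.15 with IHK-44 (-0.12 to 0.42) and -0.15 with JQAD (-0.43 to 0.12). With 4 libraries a compound, dose effects within those intervals were not excluded. A dose effect at 6 h alone was not tested.

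The subunits and partners of these enzymes moved in both directions, and their counts stand against the share of all genes that rose and fell at 6 h, which was 7.87% and 8.70% with A485, 23.2% and 22.4% with dCBP, and 20.7% and 21.4% with IHK-44. A list's count near these shares is not a result about the list. The A485 counts rest on few libraries. Without DMSO at 6 h, NT at 6 h or A485 1 uM at 6 h, 0 of the 20 SAGA and ATAC subunits passed with A485 in either direction. Values given below for a named gene against DMSO come from the fit over both times, in which 23.7% of all genes passed with dCBP and 16.9% with IHK-44. Of 40 pairs of a named list gene and a compound called in that fit, 8 passed without DMSO at 6 h (EPC1 with IHK-44, BRD1 with dCBP, and MSL2, CITED2 and MYCN with both), when the calls over all 13515 genes fell to 118 with dCBP and 125 with IHK-44. Of 20 SAGA and ATAC subunits, the partners of KAT2A and KAT2B, 3 rose and 0 fell with A485 at 6 h, 4 rose and 3 fell with dCBP, and 4 rose and 4 fell with IHK-44, with medians of 0.08, 0.10 and 0.06 beside the 0.02, 0.06 and 0.06 of all genes. SUPT7L, a SAGA core subunit, was higher by 0.50 with dCBP and 0.51 with IHK-44 against DMSO over both times (adjusted p = 0.0126 and 0.0141), at 50.4 to 75.9 CPM with these compounds against 36.5 and 43.2 in DMSO. YEATS2, an ATAC subunit, was lower by 0.32 and 0.34 (log2 changes -0.32 and -0.34), at 144 to 177 CPM against 176 and 187. MBIP, another ATAC subunit, rose with IHK-44 (0.52, adjusted p = 0.0191), at 18.97 to 26.5 CPM against 14.6 and 15.1.

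Of 16 NuA4 subunits, which work with KAT5, 2 rose and 1 fell with A485 at 6 h, 7 rose and 2 fell with dCBP and 5 rose and 1 fell with IHK-44, with medians of 0.06, 0.07 and 0.17. With dCBP and IHK-44 this is 7 and 5 of 16 rising, beside 23.2% and 20.7% of all genes, and without dCBP 1 uM or 100 nM at 6 h, or either control of 6 h, 4 to 5 rose with dCBP. EPC1, a scaffold of the complex, was higher by 0.47 with dCBP and 0.66 with IHK-44 against DMSO, at 45.2 to 76.0 CPM against 40.5 and 34.2. MEAF6 rose by 0.36 and 0.39, and DMAP1 by 0.46 with dCBP. KAT5 itself, at 0.07 with dCBP and 0.08 with IHK-44 at 6 h, did not pass.

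Of 8 scaffolds and subunits of KAT6A, KAT6B and KAT7, 2 rose with A485 at 6 h and 0 fell (7.87% and 8.7% of all genes). With dCBP 4 rose and 1 fell (23.2% and 22.4%), and with IHK-44 2 rose and 0 fell (20.7% and 21.4%). Their medians were 0.21, 0.39 and 0.23. BRPF3, a scaffold of KAT7, moved furthest of the 3 named here. It was at 80.1 and 76.8 CPM in DMSO, at 103 to 192 with dCBP and at 103 to 172 with IHK-44, a log2 change of 0.74 (SE 0.18, adjusted p = 0.0111) and 0.66 (SE 0.18, adjusted p = 0.0226). BRD1 and BRPF1, scaffolds of the same kind, were higher by 0.44 and 0.35 with dCBP.

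Of 10 MSL and NSL subunits, which work with KAT8, 1 rose and 0 fell with A485 at 6 h (7.87% and 8.7% of all genes). With dCBP 2 rose and 1 fell (23.2% and 22.4%), and with IHK-44 2 rose and 3 fell (20.7% and 21.4%). Their medians were 0.06, -0.04 and -0.13. MSL2 fell by 0.56 with dCBP and by 0.57 with IHK-44 against DMSO, from 259 and 226 CPM in DMSO to 149 to 204 with these compounds. KANSL2 rose by 0.39 and 0.41. Of 5 partners of HAT1, 1 rose and 1 fell with dCBP at 6 h and 0 moved with A485 or IHK-44, with medians of -0.15, 0.02 and -0.05. ASF1A, a histone chaperone, was the one that fell, at 16.9 to 25.2 CPM with dCBP against 29.5 and 29.1 in DMSO.

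Of 21 further acetyltransferases, 1 rose and 0 fell with A485 at 6 h (7.87% and 8.7% of all genes). With dCBP 3 rose and 7 fell (23.2% and 22.4%), and with IHK-44 3 rose and 6 fell (20.7% and 21.4%). Their medians were 0.04, -0.04 and -0.10. NAA40, an N-terminal acetyltransferase of histones, rose by 0.41 with dCBP (adjusted p = 0.0155), and NAA50, another N-terminal enzyme, fell by 0.45 (adjusted p = 0.0218). KAT14, the second acetyltransferase of ATAC, rose by 0.25 with IHK-44 (adjusted p = 0.0442). Of 18 deacetylases, which remove the mark, 2 rose and 3 fell with A485 at 6 h, 4 rose and 4 fell with dCBP and 4 rose and 7 fell with IHK-44, with medians of -0.03, 0.12 and -0.01. SIRT7 rose by 0.83 with dCBP and 0.65 with IHK-44, from 10.6 and 12.6 CPM in DMSO to 14.4 to 29.4. HDAC2 fell by 0.42 and 0.32 on the log2 scale, from 272 and 270 CPM to 190 to 262. SIRT1 rose by 0.44 with IHK-44.

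Of 18 partners and inhibitors of CBP and p300, 17 were tested. With A485 at 6 h 3 rose and 2 fell (7.87% and 8.7% of all genes). With dCBP 4 rose and 6 fell (23.2% and 22.4%), and with IHK-44 4 rose and 5 fell (20.7% and 21.4%). Their medians were 0.08, -0.03 and 0.04. CITED2, which encodes a transcriptional partner that binds CBP and p300, was the furthest from DMSO of the list genes named here apart from MYCN. It was at 71.6 and 68.1 CPM in DMSO, at 9.51 to 17.01 with dCBP and at 9.58 to 11.2 with IHK-44, which is a log2 change of -2.56 (SE 0.34, adjusted p = 0.000660) and -2.86 (SE 0.34, adjusted p = 0.000205). CRTC3, a CREB coactivator, rose by 0.26 and 0.29, and SET, a subunit of an inhibitor of histone acetylation, fell by 0.30 with dCBP. Of 9 genes of acetyl-CoA supply, 0 rose and 1 fell with A485 at 6 h, 2 rose and 1 fell with dCBP, and 1 rose and 2 fell with IHK-44, with medians of -0.03, 0.16 and 0.04. ACSS1, the mitochondrial acetyl-CoA synthetase, fell by 0.97 with dCBP and by 1.04 with IHK-44, from 43.0 and 41.2 CPM in DMSO to 12.3 to 36.5. Of 11 RH4 markers 9 were tested, and 7 fell with A485 at 6 h and 9 with dCBP and with IHK-44, none rising. With A485 this count was 0 without DMSO at 6 h, NT at 6 h or A485 1 uM at 6 h. PAX3 fell by 1.21 with dCBP and by 0.94 with IHK-44 against DMSO, FOXO1 fell by 1.85 and fell by 1.51, and MYCN fell by 3.55 and fell by 4.37, in the same order. The acetyltransferase genes were thus read in cells whose lineage genes fell at the same time. Of the 13 markers of other cells 5 were tested and 0 passed with edgeR. With JQAD at 6 h none of the genes on these lists passed, nor did any other gene (0.0% of 13260), so this is not a result about the lists.

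**Figure D5:**
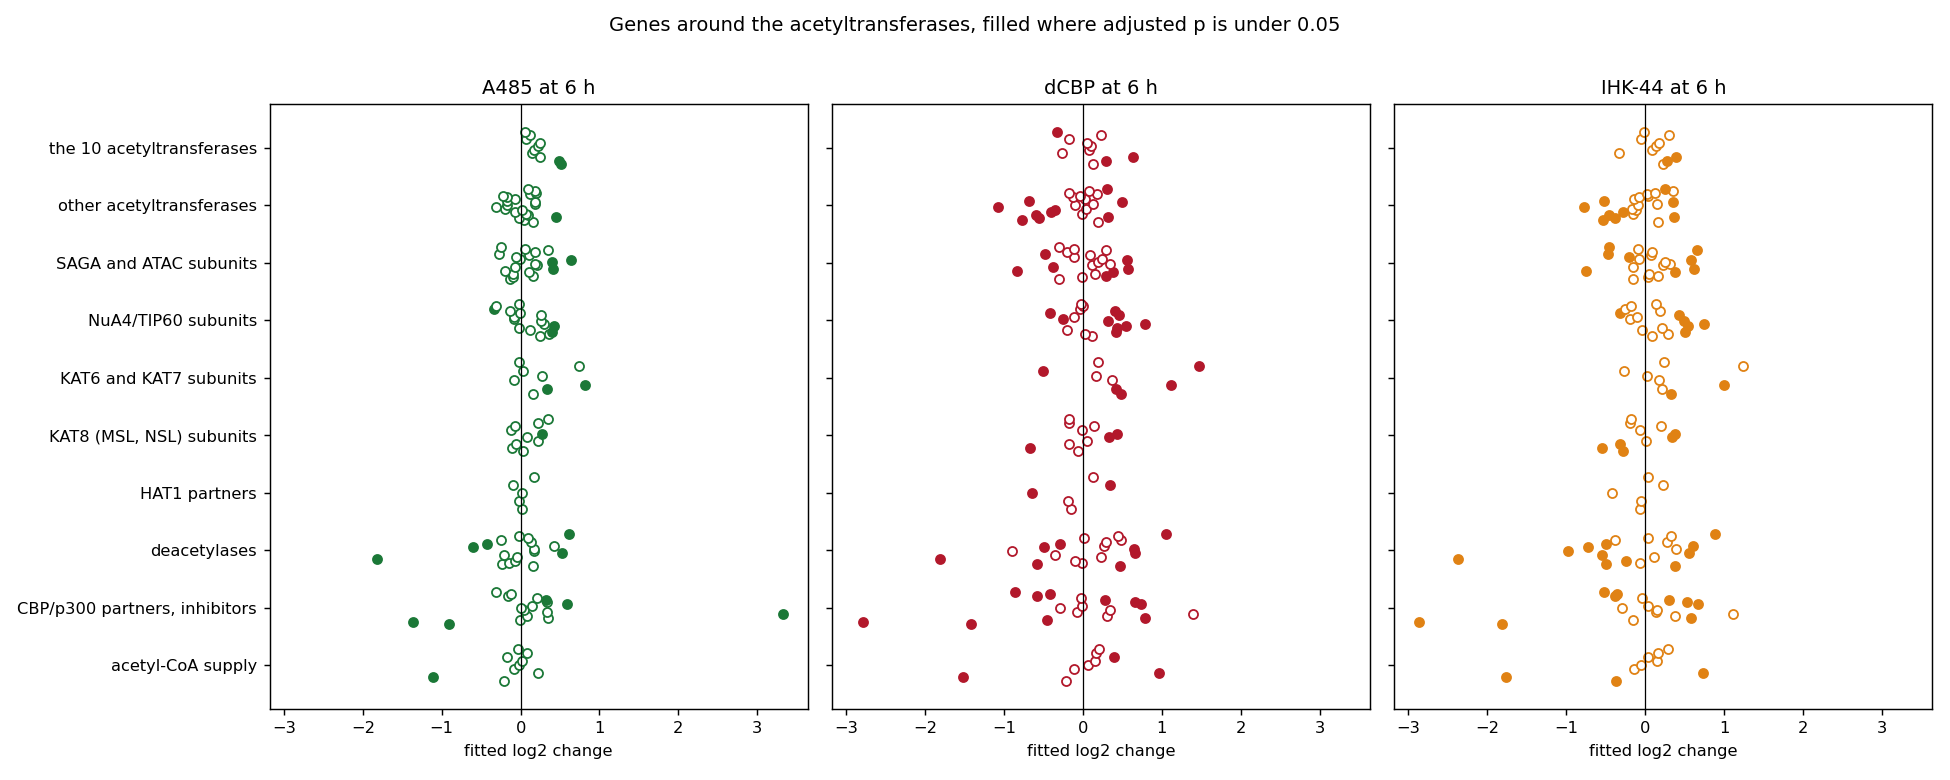
Fitted log2 change at 6 h (horizontal axis) of each tested gene of the acetyltransferases and the lists around them with A485, dCBP and IHK-44, 1 point per gene, filled where the adjusted p is under 0.05. Filled points lie on both sides of 0 in most lists, and the far right point with A485 is EID3, an inhibitor of p300 named after its values were seen, which had 20 and 25 counts with A485 at 6 h and 3 and 1 in DMSO and NT.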

How the data were processed

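RNA-seq of RH4 cells gave 20 libraries, 1 per condition. Per the submitters' processing notes, tools include STAR 2.5.3a and RSEM 1.3.3, and builds hg38 and mm10. The deposited files list expected counts (estimated reads per gene), TPM, FPKM and CPM of coding genes, per the file headers. Whether the authors counted by strand is not given in the sources used here, so reads of an overlapping antisense gene cannot be told apart from those of the gene. Of the expected counts, 88.2% were whole (within 0.005); they were rounded for count tests. CPM was recomputed over coding genes and equals the deposited CPM. TPM as deposited by the authors was scaled over more than coding genes, which hold 27.9% to 53.9% of it. FPKM as deposited served for levels between genes.

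Tests used edgeR 4.0.16 (quasi-likelihood, TMM, filterByExpr, Benjamini-Hochberg over all genes, threshold 0.05) on 3 fits. The first had compound, DMSO and NT as levels with time as a term, the second compound-by-time levels with DMSO and NT pooled, and the third dose within compound. They were also run on simulated counts, in which libraries differed only by depth, random spread and 1 planted change. The real libraries also differ in dose, time and length shift, so that run cannot vouch for the calls given here. Alternatives were RLE, no filter, DESeq2 1.42.0, limma 3.58.1 on log2(CPM + 1) and log2(TPM + 1), other controls, each library left out and, chosen after seeing the data, an offset for the trend with transcript length. The members and lists were chosen with earlier results of these data known. Named list genes are the up to 3 with the lowest p among those called for dCBP or IHK-44 against DMSO; likeness names the 5 highest r; MYCN and MYC were named for scale.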

Additional observations from a re-analysis of the deposited data

Results flagged for a closer look

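KAT2A differed between JQAD and each of dCBP and IHK-44. It was higher with dCBP than with JQAD by 0.45 and with IHK-44 than with JQAD by 0.35 on the log2 scale, each by the edgeR test of the difference itself, where 35.3% and 32.5% of all genes passed. Over all genes and 6 pairs the second had an adjusted p of 0.0504 in edgeR, and it was lost in 3 of the 8 fits that left out 1 library. Its change with dCBP was also larger at 6 h than at 2 h, by 0.56, where 9.06% of all genes passed, and this call was lost in 7 of the 8 such fits.

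The deposited files also give a transcript length per gene, weighted over isoforms, which the comparisons used only for the class of long transcripts and for the length offset. For 6 of 40 pairs of a member and a compound, all 4 treated libraries lay outside the range of the 4 controls, and for 4 of these the mean was at least 1% from the control mean. KAT7 averaged 4569 bases with dCBP (4431 to 4756) against 4233 in controls (4139 to 4358). KAT5 averaged 2176 bases with A485 and 2142 with dCBP, against 2052 in controls (1979 to 2087). HAT1 averaged 1684 bases with A485 (1677 to 1702) against 1660 (1649 to 1669). Over the 12174 genes with a mean of at least 1 CPM, 3.16% lay above all controls and 2.51% below with dCBP, and 3.06% above and 1.46% below with A485. These lengths are estimates from isoform shares and were not tested.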

How the results depend on the processing

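No pairing of replicates was possible because each condition had 1 library and the labels give no replicate numbers. The dose fit paired the 2 doses of each compound and time. Counts of called members changed as follows, and a count near the share of all genes called is not a result about the members. That share at 6 h was 47.1% with dCBP and 44% with IHK-44 under the length offset (6.32% with dCBP at 2 h). Under limma on log2(CPM + 1) it was 51.5% with IHK-44 at 6 h. For the dependence on time it was 10.3% with dCBP under the length offset and 9.71% with IHK-44 under limma. Against DMSO with dCBP, 1 became 0 with RLE size factors (23.6% of all genes called) and without a filter (16.7%). It became 2 with DMSO and NT pooled (41.1%) and with limma on log2(TPM + 1) (31.1%). The count was 4 with DMSO and NT pooled plus the length offset (41.7%). For IHK-44, 0 became 1 with NT as control (18.8%), with DMSO and NT pooled (35.4%) and with limma on log2(TPM + 1) (30.1%). It also became 1 with pooled controls plus length offset (36.3%). For A485, 0 became 1 with the last (6.78%). Between compounds, limma on log2(CPM + 1) gave 2 for A485 against JQAD (from 0, 7.19% of all genes). It gave 3 for dCBP against JQAD (from 1, 42.2%) and 2 for IHK-44 against JQAD (from 1, 40.9%). The length offset gave 2 for dCBP against JQAD (36.8%). At 6 h, DMSO alone gave 0 for A485 (from 2), 1 for dCBP (from 3) and 0 for IHK-44 (from 2); the length offset gave 5 for dCBP and 4 for IHK-44, and 1 for dCBP at 2 h (from 0); limma on log2(CPM + 1) gave 6 for IHK-44. For the dependence on time, dCBP went from 1 to 2 with the length offset and 0 with DMSO alone, and IHK-44 from 0 to 1 with limma on log2(CPM + 1). Leaving out 1 library gave 0 to 1 (dCBP against DMSO, A485 against JQAD, IHK-44 against JQAD), 0 to 3 (A485 at 6 h), 1 to 4 (dCBP at 6 h), 0 to 1 (IHK-44 at 6 h) and 0 to 2 (time dependence with dCBP). Of values at least 1.5-fold above DMSO, 5 became 1 after centring and 0 at 2-fold; of those below, 0 became 1 after centring and with NT as control. On log2(TPM + 1), changes against DMSO reversed for CREBBP (-0.25), EP300 (-0.26) and KAT2A (-0.070) with IHK-44 and for CREBBP (-0.16) and EP300 (-0.15) with dCBP, none past the threshold; KAT2A with dCBP stood at 0.03. The members called on this scale with dCBP and with IHK-44 did not include EP300, CREBBP or KAT2A. On it 138 genes rose and 3984 fell with dCBP, and 70 rose and 3925 fell with IHK-44. Coding genes held a different share of TPM in each library. The cause of the other changes was not tested.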
